A study of Mus musculus with 39 samples.

Results

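The replication-dependent histone genes of the mouse were taken as every gene of chromosomes 1 to 19 in the GENCODE annotation of mm10 whose symbol begins with Hist1h, Hist2h, Hist3h or Hist4h, which gave 70 of 51229 annotated genes. Of these, 67 are protein-coding and 3 are pseudogenes (Hist1h2aj, Hist1h2al and Hist3h2bb-ps). The rule uses gene symbols and chromosomes alone. Each gene was assigned by its midpoint to a nucleosome wrapping domain (NRD) and to a replication timing (RT) domain of R1 cells, a wild-type mouse embryonic stem (ES) cell line derived from the inner cell mass and used here without treatment. The NRDs came from H3-wrapping-seq, in which crosslinked chromatin was digested with MNase, nucleosomes were recovered with an antibody against histone H3, and the lengths of the protected DNA fragments were compared in bins of 100 kb (4 libraries from 2 experiments). The RT domains came from BrdU-labelled DNA of 4 sorted S-phase fractions in windows of 50 kb (8 libraries). Each list is a single call with 1 value per domain and no value per replicate, so that no spread between replicates was computed here, the depth behind a domain is unknown, and counts and medians below are descriptions with no test.

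Replication-dependent histone genes supply the H2A, H2B, H3 and H4 proteins that form the nucleosome core, and the linker histone H1, when chromatin is copied in S phase. They lie side by side in clusters, have no introns in their usual transcript, and give mRNAs that end in a conserved stem-loop in place of a poly(A) tail. The stem-loop is bound by Slbp, the stem-loop binding protein, and the clusters gather the factor Npat in nuclear bodies known as histone locus bodies. Replication-independent variants such as H3.3 and H2A.Z are encoded elsewhere by single genes with ordinary mRNAs. A tight NRD (TiNRD) is a run of bins with a positive wrapping index, that is, with relatively more long protected fragments, and a loose NRD (LoNRD) is a run with a negative index. An RT domain is early where its log2 ratio of early over late S-phase signal is positive and late where it is negative.

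The stem-loop is shown first, since it is the feature by which these genes can be checked in the sequence itself. Within 200 bases behind the stop codon of the mm10 reference, a stem of 6 paired bases that begins with GG and closes a loop of 4 bases was found in 65 of the 67 coding genes, 21 to 58 bases behind the stop codon (median 30). There were 8 distinct forms, written 5′ to 3′ with the stem in capitals:
41 genes, H1, H2A, H2B and H3: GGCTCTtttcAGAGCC
9 genes, H1, H2A, H2B and H3: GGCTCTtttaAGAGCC
8 genes, all H4: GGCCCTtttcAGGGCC
2 genes, Hist2h4 and another H4 gene: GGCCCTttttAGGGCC
2 genes, Hist1h4j and another H4 gene: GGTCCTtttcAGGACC
1 gene, Hist1h4a: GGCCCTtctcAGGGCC
1 gene, Hist1h3g: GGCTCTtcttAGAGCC
1 gene, Hist2h2ac: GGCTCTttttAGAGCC

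The stem of each of the 13 H4 genes therefore differed from the stem shared by the H1, H2A, H2B and H3 genes, in LoNRDs and TiNRDs alike. The first form was carried by Hist2h3c2 and Hist2h2bb on chromosome 3, by Hist3h2ba and Hist3h2a on chromosome 11, and by Hist1h2ai, Hist1h3h, Hist1h2af and Hist1h2bh on chromosome 13. The second was carried by 9 genes, among them Hist2h2ab, Hist1h2bl, Hist1h2bk, Hist1h2bb, Hist1h3c, Hist1h1t and Hist1h2ba. Of these, Hist1h1t, a linker histone gene, and Hist1h2ba, an H2B gene, are known for their expression in the testis. The testis H2A gene Hist1h2aa carried the first form. No such stem-loop was found behind Hist2h2be and Hist1h2an. With 1 mismatched pair allowed, a stem-loop was found 32 bases behind Hist1h2an as well.

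The genes formed 6 clusters when neighbours at most 500 kb apart were joined. On chromosome 13 lay 56 genes and elsewhere 14. The first large cluster of chromosome 13 held 24 genes from Hist1h2bl to Hist1h2bj (chr13:21715763-22043676, 328 kb), with 1 H1, 8 H2A, 8 H2B, 2 H3 and 5 H4 genes. The second held 31 genes from Hist1h4h to Hist1h2aa (chr13:23531050-23934851, 404 kb), with 5 H1, 6 H2A, 7 H2B, 7 H3 and 6 H4 genes. The cluster of chromosome 3 held 10 genes from Hist2h2ab to Hist2h2bb within 50.3 kb (chr3:96219865-96270132), and that of chromosome 11 held Hist3h2ba, Hist3h2bb-ps and Hist3h2a within 7.91 kb (chr11:58948920-58956830). Hist4h4 was alone on chromosome 6 (chr6:136801553-136804415), and the processed pseudogene Hist1h2al was alone on chromosome 13 (chr13:51202727-51203065).

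By NRD, 42 of the 70 genes (60%) lay in LoNRDs and 28 (40%) in TiNRDs. Among the 20807 protein-coding genes of the same chromosomes, 20.3% lay in LoNRDs and 78.6% in TiNRDs. By replication timing, 59 histone genes (84.3%) lay in early RT domains, against 75.3% of protein-coding genes. None lay in a late RT domain, against 21.4% of protein-coding genes. The other 11 (15.7%) lay in a stretch with no RT domain, against 3.26% of protein-coding genes. The wrapping and timing calls thus pointed to different kinds of domain for 33 histone genes (47.1%), which lay in a LoNRD and in an early RT domain, a combination held by 5.33% of protein-coding genes. Both tight and early were 26 histone genes (37.1%), against 69.4% of protein-coding genes. In a LoNRD with no RT domain were 9 (12.9%), against 1.45%. Genes of a cluster share their domains, so that the 70 genes stand on only 8 NRDs and 6 RT domains, and the shares cannot be read as 70 separate observations. Of the 33 loose and early genes, 13 lay in a single bin beside an NRD border, and their side of it is not resolved. The same limit holds for the 9 genes in a LoNRD with no RT domain, which lay in a single bin beside another NRD border.

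**Figure D1:**
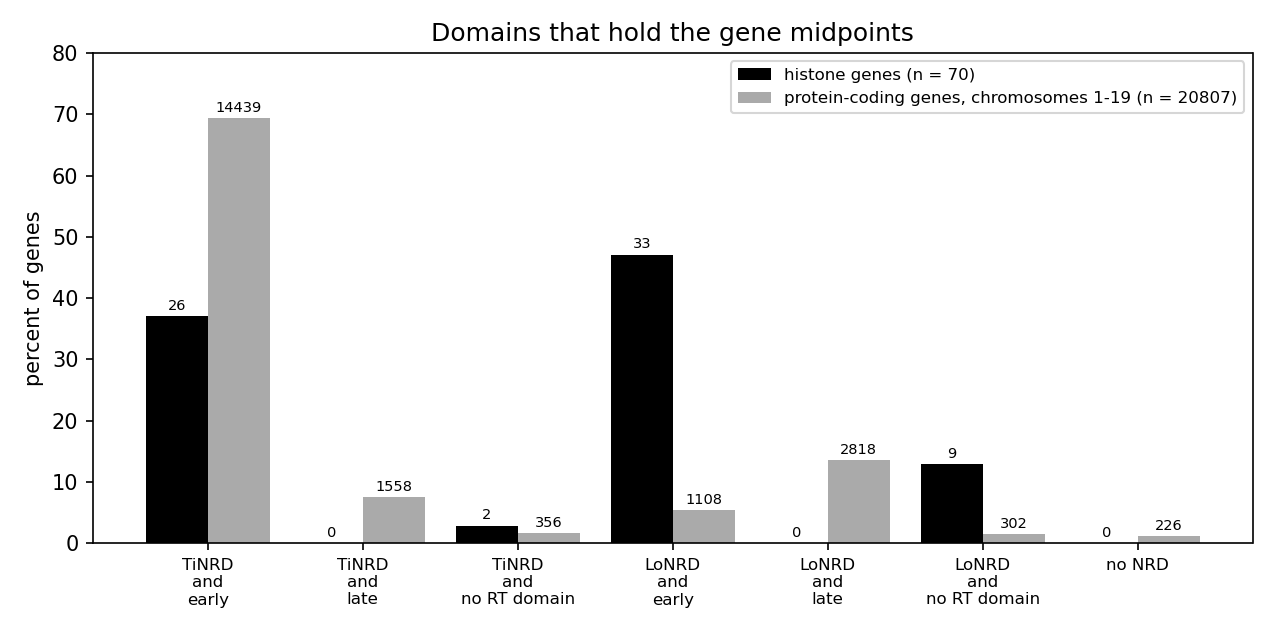
Percent of the 70 histone genes (black) and of the 20807 protein-coding genes of chromosomes 1 to 19 (grey) by the NRD and RT domain at the gene midpoint; the number above each bar is the number of genes. The histone genes reached 47.1% in LoNRDs with early timing against 5.33% of protein-coding genes, and were at 0 in both late groups.

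All 42 genes in LoNRDs came from the large clusters of chromosome 13, and the 14 genes of chromosomes 3, 6 and 11 were all in TiNRDs with early timing. The map of chromosome 13 shows how the domains divide these clusters.

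**Figure D2:**
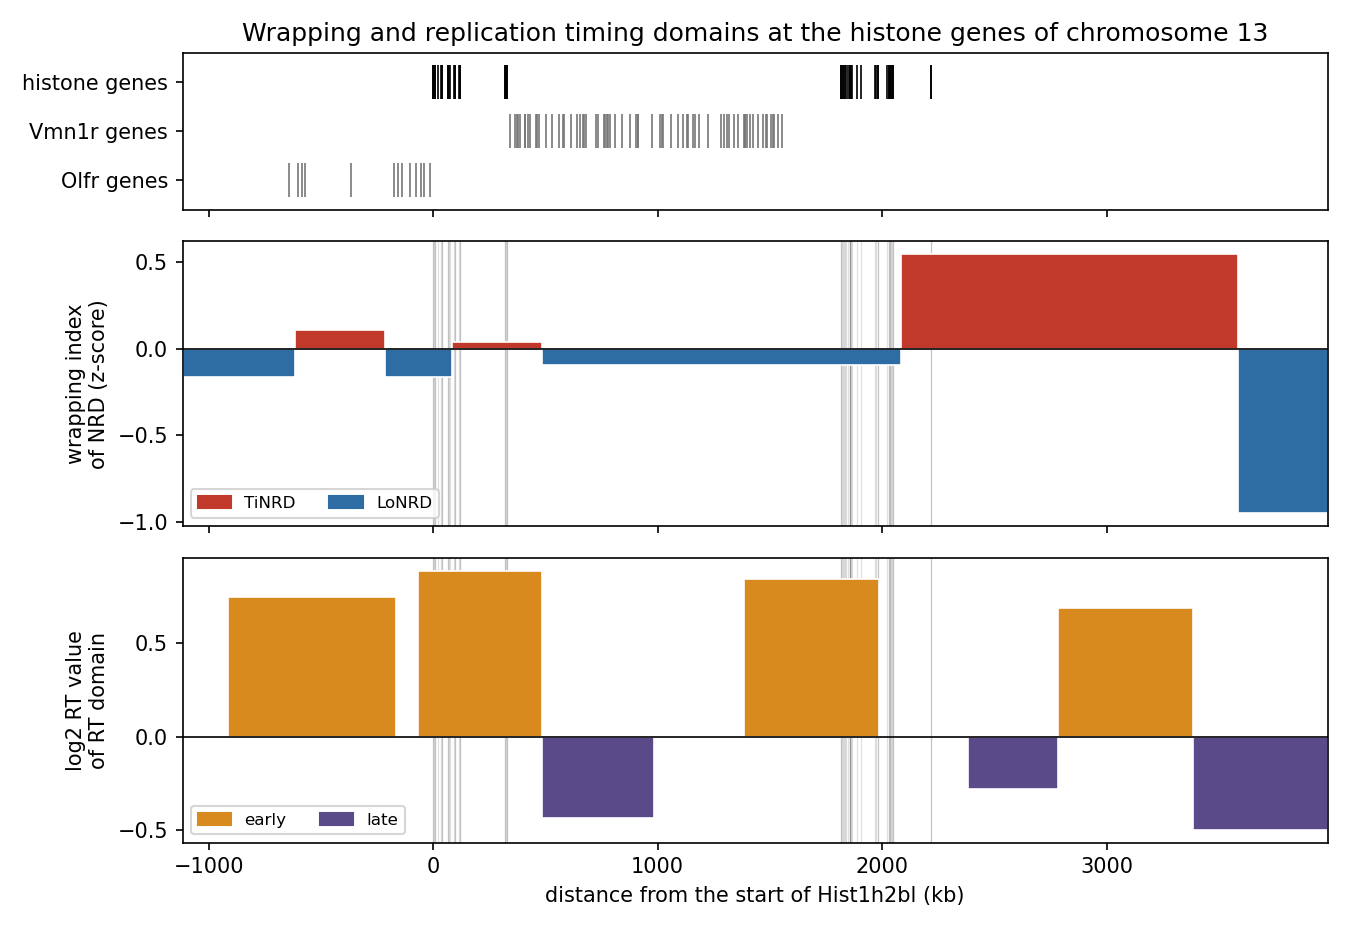
Positions of histone, Vmn1r and Olfr genes (ticks, top), wrapping index of each NRD (middle) and log2 RT value of each RT domain (bottom) against the distance from the start of Hist1h2bl in kb; faint vertical lines mark histone genes and blank stretches have no domain. The first cluster is divided between a LoNRD at -0.162 and a TiNRD at 0.0395 but lies in a single early RT domain. The second lies mostly in a LoNRD at -0.0943 and partly in a stretch with no RT domain.

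In the first cluster of chromosome 13, the 13 genes from Hist1h2bl to Hist1h2bp lay in the LoNRD chr13:21500001-21800000, which had a wrapping index of -0.162. The 11 genes that follow lay in the TiNRD chr13:21800001-22200000, with an index of 0.0395. They are the H2A genes Hist1h2ao, Hist1h2ap, Hist1h2ah and Hist1h2ag, the H2B genes Hist1h2bq, Hist1h2br, Hist1h2bk and Hist1h2bj, and the H4 genes Hist1h4m, Hist1h4n and Hist1h4i. All 24 genes lay in the same early RT domain, chr13:21650001-22200000, with a log2 RT value of 0.89. The early domain thus began inside the LoNRD and ended at the same base as the TiNRD. The border between the NRDs fell between the midpoints of Hist1h2bp, 11.7 kb before it, and Hist1h2bq, 8.40 kb after it. Hist1h2bq was the histone gene nearest to an NRD border. These neighbours are 20.1 kb apart, less than the 100 kb bin from which NRDs were called, so that the list does not resolve on which side of the border either gene lies. The limit is wider than these neighbours. All 13 LoNRD genes lay in the single bin before the border, and 6 of the 11 TiNRD genes in the bin after it. The index was also smoothed over more bins than either NRD holds before domains were called. The split into 13 and 11 genes is therefore that of the list and is not resolved.

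Of the 31 genes of the second cluster, 29 lay in the LoNRD chr13:22200001-23800000, with a wrapping index of -0.0943. By bases, 66.6% of the span of the cluster lay in this LoNRD and 33.4% in a TiNRD. The 20 genes from Hist1h4h to Hist1h4c also lay in the early RT domain chr13:23100001-23700000, with a log2 RT value of 0.84. This RT domain lay wholly inside the LoNRD. Hist1h4c, an H4 gene, was 1.96 kb from its end and was the histone gene nearest to an RT border, and Hist1h1t was 3.73 kb from it. Hist1h2bc and Hist1h2ac before the end, at 11.4 kb and 17.3 kb, were also within the 50 kb window of the timing data. So were Hist1h1c, Hist1h3c and Hist1h2bb behind it, at 39.6 kb, 45.3 kb and 47.0 kb. The list does not resolve on which side of that end these genes lie. The 9 genes Hist1h1c, Hist1h3c, Hist1h2bb, Hist1h2ab, Hist1h3b, Hist1h4b, Hist1h4a, Hist1h3a and Hist1h1a lay behind that end, in a stretch of 400 kb with no RT domain, and the timing of these genes is therefore not given by the list. The last genes of the cluster, Hist1h2ba and Hist1h2aa, which encode the testis histones TH2B and TH2A, lay in the same stretch but in another NRD, the TiNRD chr13:23800001-25300000 with an index of 0.544. The NRD border was 36 kb behind Hist1h1a and 134 kb before Hist1h2ba. The 9 genes from Hist1h1c to Hist1h1a all lay in the single bin before this border, so that their side of it is not resolved.

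The NRDs that hold most genes of the large clusters had indices close to 0. Ordered by absolute index from the weakest among the domains of the list used here, the LoNRD of the second cluster was number 26 of 525 LoNRDs, with 4.76% of them weaker, and the LoNRD of the first cluster was number 65, with 12.2% weaker. The TiNRD of the first cluster was number 6 of 561 TiNRDs, with 0.891% weaker. The TiNRD of Hist1h2ba and Hist1h2aa, by comparison, had 59.5% of TiNRDs weaker. In timing, 69.5% and 66.1% of the 768 early RT domains were weaker than the early domains of the first and the second cluster, and the 11 genes of the second cluster without an RT domain had no timing value. An absolute wrapping index under 0.2, a limit chosen after these values were seen, was held by the NRDs of 53 histone genes (75.7%) and by those of 3.84% of protein-coding genes. These 53 genes stand on 3 neighbouring NRDs.

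**Figure D3:**
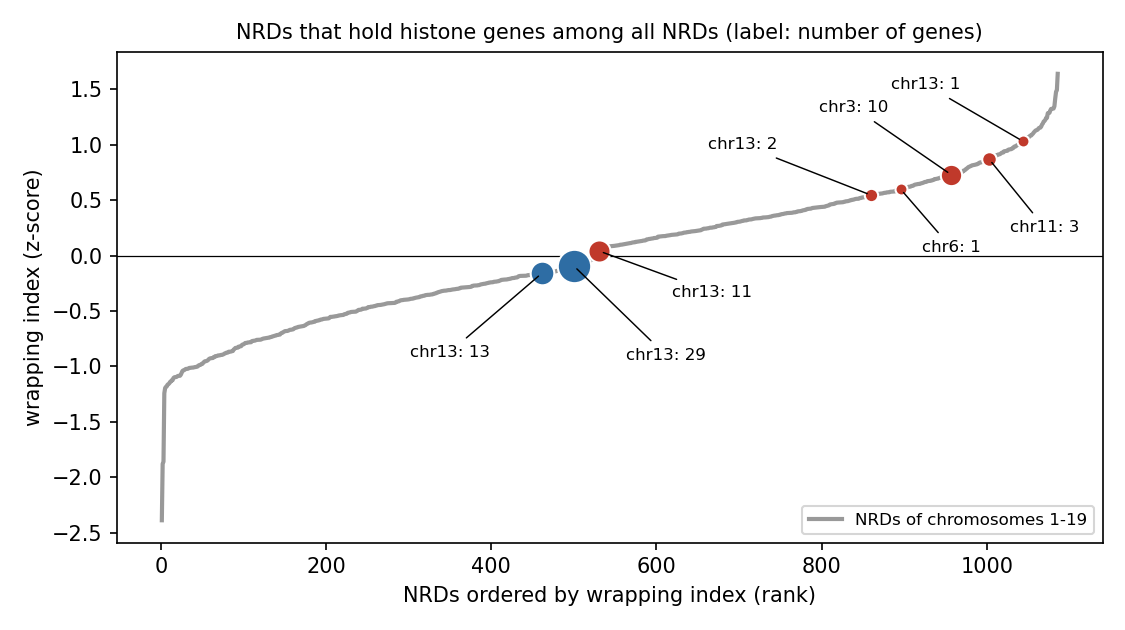
All NRDs of chromosomes 1 to 19 ordered by wrapping index (grey line; rank on the x axis, index on the y axis), with the 8 NRDs that hold histone genes as points, red for TiNRDs and blue for LoNRDs, larger with more genes and labelled with the chromosome and the number of genes. The NRDs with 13, 29 and 11 genes sit beside the change of sign, between -0.162 and 0.0395, and the other 5 lie between 0.544 and 1.03.

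The NRDs beside the first cluster were also weak. Before the first cluster lay a LoNRD of 500 kb at -0.164 and a TiNRD of 400 kb at 0.106. From the first of these to the LoNRD of the second cluster, 5 NRDs in a row alternated in sign with indices between -0.164 and 0.106. The series ended with the TiNRD at 0.544 that holds Hist1h2ba and Hist1h2aa, and behind it lay a LoNRD of 3300 kb at -0.949. In the RT list, the early domain of the first cluster was followed directly by a late domain of 500 kb at -0.44, and the early domain of the second cluster was preceded and followed by stretches of 400 kb with no domain. The next domain behind it was late, 400 kb long and at -0.28, followed by an early domain at 0.69. Before the first cluster an early domain at 0.75 ended 100 kb from the early domain of the cluster.

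The interval of 1487 kb between the large clusters holds vomeronasal receptor genes (Vmn1r), which serve pheromone detection in sensory neurons. Of 70 Vmn1r genes and pseudogenes there, 58 lay in LoNRDs and 12 in TiNRDs, while 26 were in early domains, 25 in late domains and 19 in no RT domain. Among the 36 protein-coding Vmn1r genes, 32 were in LoNRDs and 4 in TiNRDs, and 12 were early, 14 late and 10 in no domain. Histone and Vmn1r genes thus shared the LoNRD of the second cluster, while the late domain between the clusters held 25 Vmn1r genes and no histone gene. The LoNRD of the first cluster held 8 olfactory receptor (Olfr) genes on the side away from the TiNRD. Other coding genes within the first cluster were Zfp184, Pom121l2 and Prss16, all in the weak TiNRD and early. Within the second, Hfe, a regulator of iron uptake, and Trim38 shared the LoNRD without an RT domain, and the phosphate transporter genes Slc17a1, Slc17a2, Slc17a3 and Slc17a4 lay in the TiNRD at 0.544, also without an RT domain.

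Both clusters lie among tRNA genes, which are transcribed by RNA polymerase III. The span of the first cluster held 31 tRNA genes of the RefSeq annotation, all of them in the weak TiNRD and early. The span of the second cluster held none, but its early RT domain held 45 tRNA genes, all in the LoNRD. On chromosomes 1 to 19, 82 of 386 annotated tRNA genes lay in LoNRDs, and 358 lay in early domains.

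The cluster of chromosome 3 lay deep inside its domains. Its 10 genes were in the TiNRD chr3:93500001-98700000, with a wrapping index of 0.729 and 76.8% of TiNRDs weaker, and in the early RT domain chr3:94250001-98050000, with a log2 RT value of 1.31 and 92.2% of early domains weaker. Hist2h2ab was the histone gene farthest from any border, 2480 kb from the nearest NRD border and 1830 kb from the nearest RT border. The early domain was enclosed by late domains at -0.58 and -0.62, and the TiNRD was followed by a LoNRD at -0.161. Within 500 kb on either side of the cluster, 100% of the bases were tight and early.

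The 3 genes of chromosome 11 lay in a still longer TiNRD, of 8600 kb with an index of 0.868, and in an early RT domain with a log2 RT value of 1.21. Here the border of timing was near. The early domain began 149 kb before the midpoint of Hist3h2ba, behind a late domain of 350 kb at -0.29 in the same TiNRD, which held 20 Olfr genes. Within 500 kb before the cluster 100% of the bases were tight, but 30% were early and 70% late.

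Hist4h4, the H4 gene of chromosome 6, lay in a TiNRD of 4400 kb with an index of 0.596 and in an early RT domain of 750 kb with a log2 RT value of 0.71. Before this early domain lay a late domain of 350 kb at -0.43, and behind it an early domain at 0.38 after a stretch with no domain. The replication-independent gene H2afj shared both domains with Hist4h4. The pseudogene Hist1h2al lay in the TiNRD with the highest index of all 8, 1.03, and in the early RT domain with the lowest value of all 6, 0.63.

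**Figure D4:**
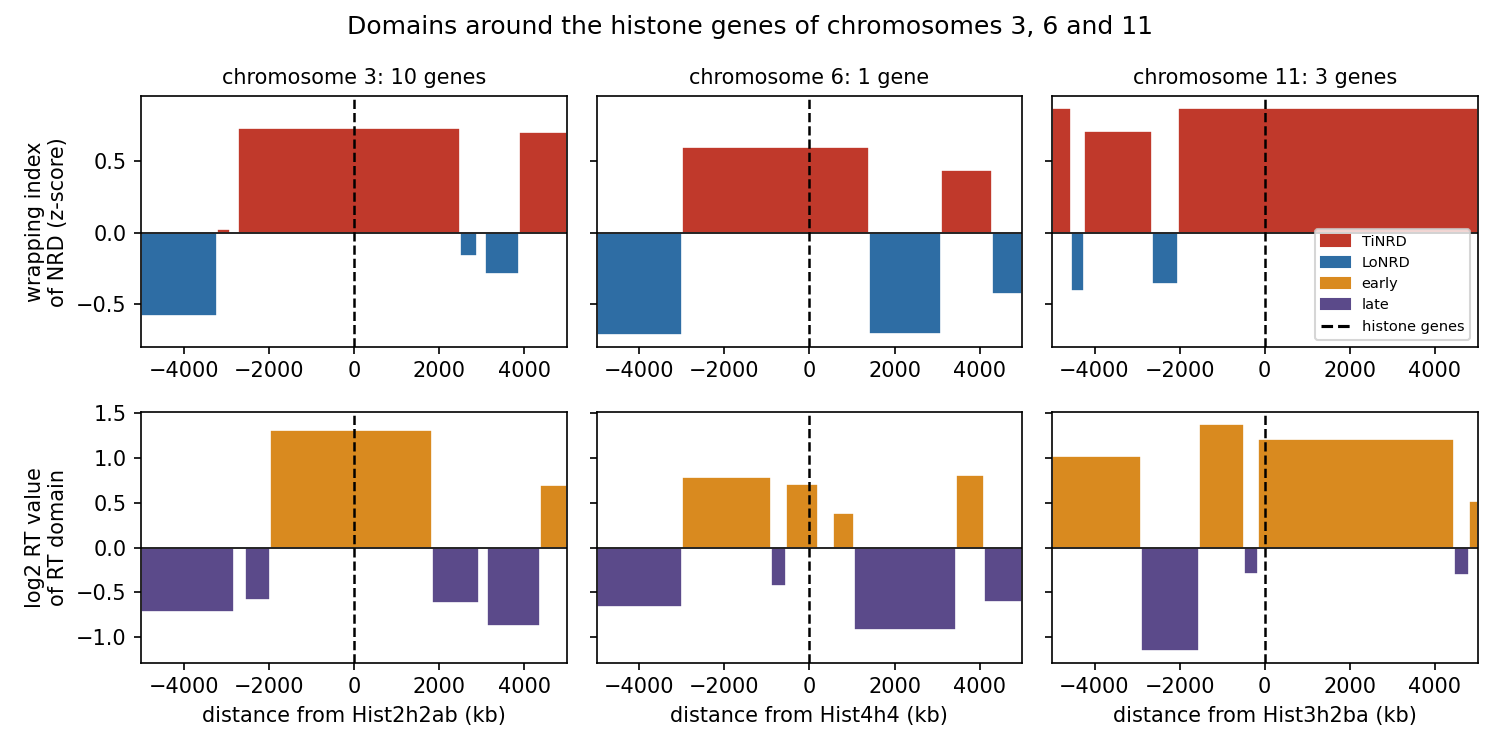
Wrapping index of NRDs (top) and log2 RT value of RT domains (bottom) within 5000 kb on each side of the histone genes of chromosomes 3, 6 and 11, against the distance from the first gene in kb; the dashed line marks the histone genes. Each cluster lies in a TiNRD, at 0.729, 0.596 and 0.868, and in an early RT domain, at 1.31, 0.71 and 1.21, with a late domain at -0.29 close before the genes of chromosome 11.

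Over the genes, the median wrapping index of the NRDs was -0.0943 (range -0.162 to 1.03, n = 70), while it was 0.757 for protein-coding genes (quartiles 0.296 and 1.05). This median depends on the many genes of chromosome 13. With each of the 8 NRDs counted once it was 0.570, and without chromosome 13 it was 0.729. The median log2 RT value was 0.89 over the 59 genes in RT domains (range 0.63 to 1.31) and 0.98 over protein-coding genes in RT domains (quartiles 0.37 and 1.39), so that in timing the histone genes lay inside the middle range of all genes. Their NRDs were shorter, with a median over genes of 1600 kb against 4800 kb, as were their RT domains, with 600 kb against 2400 kb. Their median distance to the nearest border was 157 kb in the NRD list and 141 kb in the RT list, against 898 kb and 493 kb for protein-coding genes. These medians also rest on chromosome 13. Over the 14 genes elsewhere they were 5200 kb for the length of NRDs, 3800 kb for that of RT domains, 2445 kb to the nearest NRD border and 1795 kb to the nearest RT border, all longer than for protein-coding genes. With each domain counted once, the median length was 3000 kb in the NRD list and 1750 kb in the RT list, while all NRDs and all RT domains of these chromosomes had medians of 1100 kb and 950 kb.

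**Figure D5:**
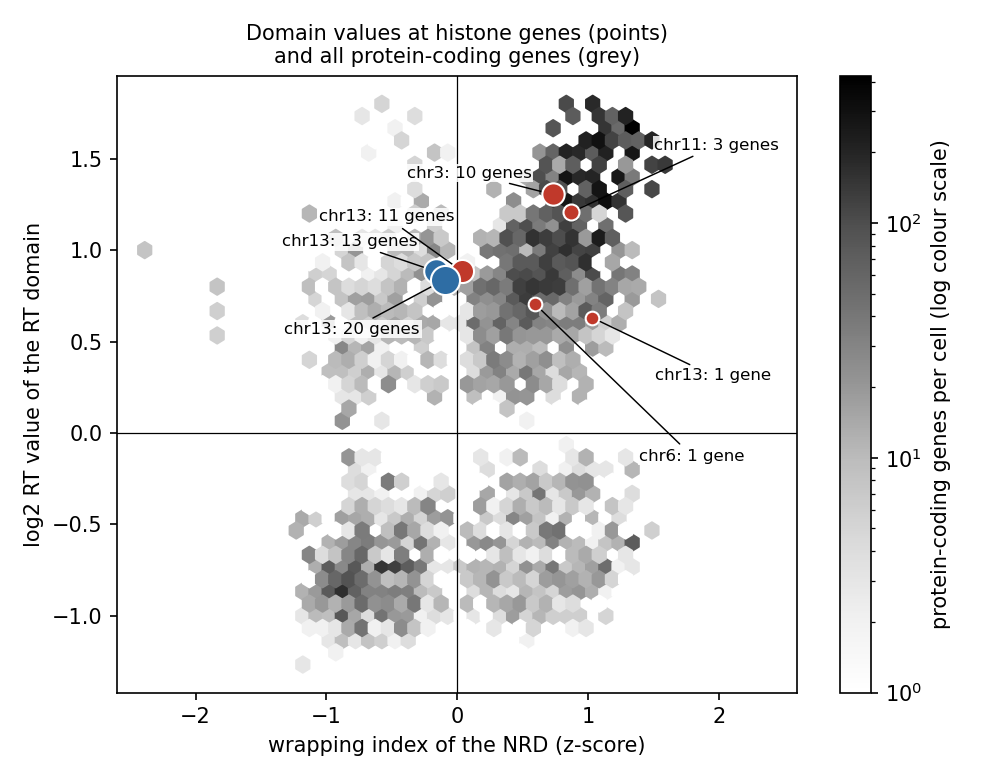
Log2 RT value of the RT domain against wrapping index of the NRD for histone genes (points, larger with more genes, labelled with chromosome and number of genes) and for all protein-coding genes with both domains (grey cells, log colour scale). The points with 13, 20 and 11 genes lie at a wrapping index between -0.162 and 0.0395 and a log2 RT value of 0.84 to 0.89, while those of chromosomes 3 and 11 lie at 0.729 and 0.868 with 1.31 and 1.21.

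Stretches that are both loose and early also occurred elsewhere on chromosomes 1 to 19, where the lists overlapped in 435 such segments with a median length of 250 kb. Any overlap was counted, however short, and 5.33% of protein-coding genes were loose and early. The segment of the second cluster, chr13:23100001-23700000, measured 600 kb and was number 35 by length, with 13 segments of that length. The segment of the first cluster, chr13:21650001-21800000, measured 150 kb and was number 269. These segments held 20 of the 31 genes of the second cluster and 13 of the 24 genes of the first, the latter by an NRD border that is not resolved at this distance.

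The histone classes were divided over the domains as the clusters were. All 6 H1 genes lay in LoNRDs of chromosome 13. Hist1h1b was in the first cluster, and Hist1h1d, Hist1h1e, Hist1h1t, Hist1h1c and Hist1h1a were in the second. Hist1h1c and Hist1h1a had no RT domain and the other 4 were early. Hist1h1b, Hist1h1c and Hist1h1a lay in bins beside an NRD border, so that their side of it is not resolved. Of the H2A genes, 11 were in TiNRDs and 9 in LoNRDs, and of the H2B genes 9 and 10. Of the H3 genes, 3 were in TiNRDs, all on chromosome 3, and 9 in LoNRDs. Of the H4 genes, 5 were in TiNRDs and 8 in LoNRDs. Early domains held 18 of 20 H2A, 17 of 19 H2B, 9 of 12 H3 and 11 of 13 H4 genes.

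By the list, genes with the same product lay in both kinds of NRD. The coding sequences of the 13 H4 genes give a single protein of 103 residues, which is thus encoded in 8 loose and 5 tight loci. The 12 H3 genes give only 2 proteins. The more common, from 8 genes, was encoded in 3 TiNRD and 5 LoNRD loci, and the other, from Hist1h3a, Hist1h3g, Hist1h3h and Hist1h3i, in 4 LoNRD loci. The most common H2A protein came from 9 genes, all on chromosome 13, of which 6 were loose and 3 tight. The most common H2B protein came from 6 genes of chromosome 13, of which 3 were loose and 3 tight. The 3 tight genes of this H2A protein and the 3 of this H2B protein all lay in the weak TiNRD of the first cluster. The split of that cluster is not resolved, and so neither is the tight side of these 2 proteins. Of the tight H4 genes, Hist1h4m, Hist1h4n and Hist1h4i lay there too, while Hist2h4 and Hist4h4 lay in TiNRDs of other chromosomes. The 6 H1 genes each gave a protein of their own, of 209 to 223 residues.

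H2A and H2B genes often stand head to head and share the sequence between them as promoter. There were 12 such pairs, with 278 to 334 bases between the coding starts (median 299). By the list, 6 pairs were in TiNRDs and 6 in LoNRDs. No pair was split by an NRD border, but a split was hardly possible, since the coding starts lie far closer together than the 100 kb bins. Both genes were early in 11 pairs, and the pair Hist1h2ba and Hist1h2aa had no RT domain. The pairs nearest to the NRD border of the first cluster are shown, together with the last pair of the cluster. The sequences run from start to start on the + strand of GRCm38 (mm10), by the starts in RefSeq, with CCAAT and TATAAA boxes of either strand in capitals. They lie at chr13:21787249-21787487 (LoNRD), chr13:21810200-21810366 (TiNRD) and chr13:22042950-22043197 (TiNRD):
Hist1h2an/Hist1h2bp: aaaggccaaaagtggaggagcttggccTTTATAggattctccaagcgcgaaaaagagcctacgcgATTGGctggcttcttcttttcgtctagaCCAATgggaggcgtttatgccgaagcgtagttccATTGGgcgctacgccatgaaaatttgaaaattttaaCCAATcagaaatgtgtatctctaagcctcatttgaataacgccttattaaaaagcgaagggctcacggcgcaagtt
Hist1h2bq/Hist1h2ao: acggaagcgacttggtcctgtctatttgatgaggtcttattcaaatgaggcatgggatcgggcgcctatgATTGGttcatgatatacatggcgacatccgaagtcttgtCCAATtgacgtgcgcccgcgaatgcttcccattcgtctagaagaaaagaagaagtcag
Hist1h2ag/Hist1h2bj: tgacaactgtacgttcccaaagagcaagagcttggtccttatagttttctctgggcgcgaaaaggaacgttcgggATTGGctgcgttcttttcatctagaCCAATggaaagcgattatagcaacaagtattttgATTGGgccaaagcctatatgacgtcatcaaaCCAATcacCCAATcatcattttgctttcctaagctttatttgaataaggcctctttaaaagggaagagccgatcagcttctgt

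The loose pair Hist1h2an/Hist1h2bp held 4 CCAAT boxes and 1 TATAAA box in 239 bases. The tight pair Hist1h2bq/Hist1h2ao, across the border, held 2 CCAAT boxes in 167 bases, and the tight pair Hist1h2ag/Hist1h2bj held 5 in 248 bases. In a global alignment, Hist1h2an/Hist1h2bp was 66.1% identical to Hist1h2ag/Hist1h2bj and 50.6% identical to Hist1h2bq/Hist1h2ao, while the tight pairs were 50% identical to each other. Of the 15 comparisons among 6 pairs of the first cluster, the 66.1% was the highest, and the other 14 ran from 42.2% to 54.8%. The pair Hist1h2ap/Hist1h2br of this cluster was not among those compared. Identity was counted over all alignment columns, gaps included, which lowers it where lengths differ. Hist1h2bq/Hist1h2ao is the shortest printed sequence and runs from H2B to H2A on the + strand, while the others printed run from H2A to H2B. These values therefore do not rank how alike the promoters are. Among the 62 histone genes matched by symbol to the RefSeq promoters of mm10 (250 bases before to 50 bases after the start), CCAAT was found on either strand in 53 (85.5%), against 38.9% of 16457 promoters. TATAAA was found in 35 (56.5%), against 13.5%. By class, CCAAT was found in all 6 H1, all 18 H2A, all 16 H2B and all 10 H3 promoters and in 3 of 12 H4 promoters. TATAAA was found in 4 of 6 H1, 11 of 18 H2A, 8 of 16 H2B, 4 of 10 H3 and 8 of 12 H4 promoters. Differences between classes were not tested. Promoters of a shared pair overlap, and a match is a run of letters and not a bound site.

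LoNRDs are richer in A and T bases than TiNRDs, and base composition was therefore measured at the histone genes. The share of A and T was 53.9% in the cluster of chromosome 3, 54.3% in that of chromosome 11, 56.2% at Hist4h4, and 57.1% and 58.0% in the first and second clusters of chromosome 13. Bins of 100 kb had a median of 58.6% (quartiles 55.5% and 61.2%), TiNRDs had a median of 56.7% and LoNRDs of 60.3%. The LoNRDs with histone genes, at 59.6% and 59.2%, and the weak TiNRD, at 57.9%, were between those medians. The part of base composition in the wrapping index was not tested. Repeated sequence can also limit how reads are placed. Of all 50-base words, 81.3% in the first and 92.9% in the second cluster of chromosome 13 occurred once in the genome, as did 87.0%, 77.7% and 77.1% in the NRDs at -0.162, 0.0395 and -0.0943. In 95 bins of 100 kb drawn over chromosomes 1 to 19 the median was 91.9% (quartiles 85.4% and 96.2%). The part of repeated sequence in the weak indices was not tested.

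Other genes of histone supply were placed in the same way, and their counts stand beside the 78.6% of protein-coding genes that were tight and the 75.3% that were early. The list of replication-independent histone genes held 11 genes, among them H3f3a and H3f3b (H3.3), H2afz (H2A.Z) and Cenpa (the centromeric H3). These genes were chosen, and the list may not hold every such gene of the annotation. All 11 lay in TiNRDs and in early RT domains, with a median wrapping index of 0.990 and a median log2 RT value of 1.08. Of 15 genes for histone mRNA synthesis and processing, 14 were in TiNRDs and 13 were early, with medians of 0.956 and 1.00. Slbp lay at an index of 1.21 and Npat at 0.496. The exceptions were Cstf2t, a cleavage stimulation factor gene, in a LoNRD at -0.507 with no RT domain, and Eri1, an exonuclease gene, in a TiNRD but late. Of 13 histone chaperone genes, 11 were in TiNRDs and 11 were early. Nasp, a chaperone of H3 and H4, was loose at -0.183 and early. Asf1a had no NRD and was late, and Hjurp was tight with no RT domain. No other gene of these lists was loose and early, a combination of 5.33% of protein-coding genes. No difference from these shares was tested.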

How the data were processed

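The authors trimmed reads with cutadapt (4.3), aligned them to mm10 with Bowtie2 (2.5.1), marked duplicates with Picard and filtered with SAMtools and bedtools (2.30.0). For NRDs, the authors compared long with short H3 fragments in 100 kb bins, took the z-score, smoothed it and called domains with homer2. The authors gave every NRD a score, deposited with its position and called wrapping index here. The value of each RT domain is a log2 value deposited by the authors, from early over late fractions in 50 kb windows after quantile normalization. How a domain's value was made from its bins, and whether replicates were pooled, is not given in the sources used here. Smoothing limits how closely a border can be placed.

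Genes were taken from GENCODE vM21 (GRCm38), which holds every domain of the 1243 NRDs and 1811 RT domains within its chromosomes. The background was all protein-coding genes of chromosomes 1 to 19. Sequence was read from GRCm38.p6 and RefSeq promoters with Python 3.11.15 and numpy 2.4.6, with 5 bins drawn per chromosome for repeated words. Proteins were translated from the coding sequences. Ranks refer to the lists as used here, which may not hold every domain that the authors called. No test was run. Placement and the stem-loop search were tested on simulated data.

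Genes named are the first and last of each cluster, genes alone in a cluster, genes whose NRD or RT kind differs from most of their cluster, genes in no domain, all H1 genes, those nearest to and farthest from a border, and, for stem-loops, the first gene of each core class and cluster. Other names and the promoter pairs were chosen after their values were seen. The members and lists were chosen with earlier results of these data known. Alternatives were the gene start for placement, domains of at least 500 kb, merged domains, coding genes only, genes with a stem-loop only, the largest cluster left out, other cluster distances, windows and stem-loop settings, and all gene types as background. Leaving out chromosome 13, and counting each domain once for lengths, were added after seeing the data. The other experiments of the study were not analysed here.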

Additional observations from a re-analysis of the deposited data

How the results depend on the processing

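Of 89 values recomputed under other settings for 32 results, 55 stayed within the limit set for them, 32 moved and 2 changed sign. The clusters of chromosome 13 decided most of the moves. Without chromosome 13, a setting added after seeing the data, 14 histone genes were in TiNRDs, 14 were early, and 0 were in LoNRDs, in a LoNRD with early timing or without an RT domain. The median wrapping index then was 0.729 and the median log2 RT value 1.31. Without the largest cluster, 13 genes were in LoNRDs, 39 were early, 13 were loose and early and 0 had no RT domain. When domains shorter than 500 kb were dropped, which removes both NRDs of the first cluster, 17 genes were in TiNRDs and 20 were loose and early. With each domain counted once the median wrapping index was 0.570, so that its sign rests on how many genes share a domain. With all annotated gene types as background, 70.8% were in TiNRDs and 64.6% early. The shares within the windows beside clusters moved most where a border was near. No paired analysis was possible because the domain lists hold no value per replicate and no result comes from a test, and for the same reason no replicate was left out. Tracks of single replicates were not analysed here. The depth behind each domain is unknown.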
